A study of Mus musculus with 8 samples.

Results

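Cystatin C, the apolipoproteins and the enzymes and transporters that handle lipids in glia were described here through 10 genes of the 20692 measured: Cst3, Apoe, Apoc1, Clu, Abca1, Abcg1, Lpl, Lpcat2, Apbb1ip and Ptgds. They were chosen by name, with their difference between the compared populations already known, so their values in that comparison are a description. The study compared unchallenged cells of the mouse central amygdala that had been labelled through protein kinase C delta (PKCd) or through somatostatin (SST). PKCd libraries came from PKC delta-type::Cre mice and SST libraries from SST::Cre mice, both crossed to the Rosa::loxP-STOP-loxP-td-Tomato reporter. All mice were male, and each library held about 1000 td-Tomato+ cells of 1 mouse, dissociated with papain and sorted by flow cytometry. Replicates 1 and 2 were 9 weeks old in the PKCd group and 8 weeks old in the SST group. Replicates 3 and 4 were 18 weeks old in the PKCd group and 20 weeks old in the SST group. Each population thus had 4 libraries, 2 younger and 2 older. In such a cross the reporter stays on in any cell that has ever had active Cre, and these cells were defined by the td-Tomato gate.

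Apolipoproteins are the protein coats of lipid particles. In the brain, astrocytes are the main source of Apoe and Clu, cholesterol leaves cells through Abca1 and Abcg1, and particles are taken up again through receptors of the LDL receptor family. Microglia, the resident macrophages of the brain, take up lipid through Trem2 and remodel phospholipids. Cst3 encodes a secreted inhibitor of cysteine cathepsins that microglia and astrocytes both make, and Ptgds encodes the prostaglandin D synthase of oligodendrocytes, meninges and choroid plexus.

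Several facts of the libraries bear on all values below. Totals ran from 10316100 to 18242433 estimated counts in the younger libraries and from 964297 to 2522651 in the older ones, so age runs together with depth. A tag in the names of the deposited files, which may mark the sequencing run, separates the same libraries, so age, depth and that tag cannot be told apart. Prkcd stood at 106.5 to 225.7 TPM, transcript abundance scaled for length and library, in the PKCd group and 0 to 30.18 TPM in the SST group. Sst stood at 116.3 to 296.2 TPM in the SST group and at 222.7 TPM in PKCd replicate 2, against 0.2086 to 13.7 in the other PKCd libraries. The labels name neurons, but the summed TPM of the neuron markers was only 221.3 to 1944 in the 8 libraries, and Slc32a1, the vesicular GABA transporter, was at 0 counts in 2 libraries of each population. Microglial, astrocytic and oligodendrocytic transcripts were present in all 8 libraries. The endothelial markers summed to 653.9 to 11760 TPM in the PKCd group and 59.61 to 11200 TPM in the SST group, highest in replicate 4 of both, and all 10 had a positive log2 fold change by population and by age. The mural sum was 102.5 to 3764 TPM against 2145 to 10760 TPM, with all 8 markers negative by population. By edgeR and limma 0 of these markers passed in either comparison. At an unadjusted p under 0.05 with edgeR stood 2 endothelial and 4 mural markers by population and 5 and 2 by age. Of all 11328 tested genes 756 had such a p by population and 946 by age. DESeq2 called 2 and 3 of these markers by population and 4 and 0 by age, beside 4.01% and 5.0% of all genes. In such bulk libraries, fewer cells of a type and less RNA per cell cannot be told apart.

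Upstream sequence is shown for 3 of the 4 genes that stood above all SST libraries in every PKCd library, Cst3, Lpcat2 and Abca1. RefSeq windows of GRCm38.p6 were found for 6 of the 10 genes (Cst3, Apoe, Abca1, Lpcat2, Apbb1ip and Ptgds). The 250 bases before each start were searched on both strands for GAGGAA, the core bound by the myeloid factor PU.1, for the TATA box TATAAA, for the GC box GGGCGG, and for TGACCGNNNNTAACC, a direct repeat of the kind bound by the sterol-sensing receptor LXR. In the 3 windows shown no match overlapped another. Bases that lie inside any annotated transcript of the gene are left out, apart from the short Abca1 site. Sequences run 5′ to 3′ in lower case and capitals mark motif matches.
Cst3, chr2:148875693-148875762, minus strand: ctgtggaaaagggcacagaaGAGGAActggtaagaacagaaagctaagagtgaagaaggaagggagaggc
Lpcat2, chr8:92855083-92855312, plus strand: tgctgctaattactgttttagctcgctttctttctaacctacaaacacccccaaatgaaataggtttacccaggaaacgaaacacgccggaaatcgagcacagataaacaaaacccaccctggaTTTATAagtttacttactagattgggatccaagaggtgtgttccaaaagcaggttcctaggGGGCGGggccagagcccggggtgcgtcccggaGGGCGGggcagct
Abca1 site, chr4:53159940-53159969, minus strand: cagcgttTGACCGGTAGTAACCccggcgct
The capitals in Cst3 are GAGGAA, 225 to 230 bases before the start (a GGGCGG at 62 to 67 bases lies in the part not shown), and 23.3% of 32851 RefSeq windows of 250 bases held that motif. In Lpcat2 the capitals are TATAAA on the opposite strand, read as TTTATA, at 121 to 126 bases, and GGGCGG at 60 to 65 and at 28 to 33 bases. TATAAA was in 12.4% and GGGCGG in 32.7% of all windows. The Abca1 repeat lay 53 to 67 bases before the start, and 4 windows (0.0122%) held it. Its pattern fixes more letters than the other motifs and was chosen with Abca1 already among the 10 genes. Nothing is read from this match or from its rarity. Abca1 also had TATAAA at 24 to 29 bases and GGGCGG at 92 to 97 and 158 to 163 bases. The window of Apbb1ip, the other gene of that kind, held 0 matches of the 4 motifs, as did that of Ptgds. Apoe, whose mean was higher in SST libraries, held GAGGAA in 2 of its 3 windows. A match describes the letters and is not a site of binding.

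Cst3 (chromosome 2, 148871722 to 148875512, GRCm38.p6), the cystatin, was the most abundant gene of all by TPM in 7 of the 8 libraries, and it ranked 5 in SST replicate 2. It stood at 84150, 65190, 82500 and 52300 TPM in PKCd replicates 1 to 4, and at 50950, 11980, 20160 and 16480 TPM in SST replicates 1 to 4. The PKCd libraries all lay above the SST libraries, but SST replicate 1 came within a narrow margin of PKCd replicate 4. The means were 71030 ± 15150 and 24890 ± 17690 TPM (SD, n = 4 each), a ratio of 2.85, and the fitted log2 fold change (PKCd minus SST) was 1.48 with an SE of 0.63. Leaving out SST replicate 1 moved it to 2.32, and leaving out any other library kept it between 1.23 and 1.69. Cst3 alone took 5.23% to 8.42% of the TPM of PKCd libraries and 1.20% to 5.09% of that of SST libraries. Of the estimated counts it took less, 1.66% to 3.0% in PKCd libraries and 0.373% to 2.18% in SST libraries. TPM is scaled for length, and the Cst3 target has 742 bases, so its rank and share hold for TPM only.

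Lpcat2 (chromosome 8, 92855313 to 92919279), an acyltransferase that makes platelet-activating factor and remodels phosphatidylcholine in macrophages, was separated by a wide margin. It was at 410.5, 354.4, 876.6 and 455.6 TPM in PKCd replicates 1 to 4, and at 18.28, 103.2, 11.38 and 67.01 TPM in SST replicates 1 to 4. The lowest PKCd library, replicate 2, was well above the highest SST library, which was also replicate 2. The means were 524.3 ± 238.5 and 49.96 ± 43.26 TPM, a ratio of 10.5, with a log2 fold change of 3.46 ± 0.71 (SE). It was 4.10 without SST replicate 2 and 3.01 to 4.10 over all libraries left out. Lpcat2 spans the gene Capns2 and overlaps the long non-coding RNA Gm45472, and reads from overlapping genes may be divided between them.

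Apbb1ip (chromosome 2, 22755971 to 22875653) encodes RIAM, which links Rap1 to talin and integrins in leukocytes. It stood at 29.58, 28.97, 16.26 and 15.92 TPM in PKCd replicates 1 to 4, from 830, 504, 22 and 34 estimated counts. In SST replicates 1 to 4 it was at 1.63, 0, 3.61 and 0 TPM, from 43, 0, 8 and 0 counts. All PKCd libraries were above all SST libraries. With no read seen, up to 3 counts remain possible, or 0.14 TPM in SST replicate 2 and 0.803 TPM in SST replicate 4, in counting error only. The ratio of means was 17.3 (22.68 ± 7.617 against 1.312 ± 1.717 TPM), and the log2 fold change of 4.10 had an SE of 1.90. It was 5.72 without SST replicate 3, 4.94 without SST replicate 1 and 3.57 without SST replicate 2, the last being the lowest with 1 library left out. Apbb1ip overlaps the long non-coding RNA Gm52503.

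Abca1 (chromosome 4, 53030789 to 53159988), which loads cholesterol onto apolipoproteins, was also higher in every PKCd library, by a small margin. It was at 13.3, 15.03, 15.99 and 34.87 TPM in PKCd replicates 1 to 4, and at 7.62, 6.57, 13.14 and 8.10 TPM in SST replicates 1 to 4. PKCd replicate 1 stood almost level with SST replicate 3, and PKCd replicate 4 stood apart. The means were 19.8 ± 10.11 and 8.855 ± 2.926 TPM, a ratio of 2.24, with a log2 fold change of 1.13 ± 0.57 (SE), or 0.84 without PKCd replicate 4. That library also had the highest endothelial sum, 11760 TPM, and the highest erythrocyte sum, 8471 TPM against 0.4938 to 2864 in the other 7. SST replicate 4 had an endothelial sum of 11200 TPM, with Abca1 at 8.10 TPM. The part of endothelial and erythrocyte RNA in Abca1 was not tested. Abcg1 (chromosome 17, 31057694 to 31117984), the partner that passes cholesterol to mature particles, had a similar ratio of 2.93 but overlapped between populations. It was at 22.78, 60.9, 49.53 and 14.18 TPM in PKCd replicates 1 to 4, and at 2.74, 34.09, 4.54 and 8.87 TPM in SST replicates 1 to 4. SST replicate 2 lay above PKCd replicates 1 and 4. The means were 36.85 ± 21.99 and 12.56 ± 14.59 TPM, and the log2 fold change was 1.87 ± 0.81 (SE), or 1.31 to 2.83 with each library left out (2.83 without SST replicate 2).

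Apoe (chromosome 7, 19696244 to 19701310), the main apolipoprotein of the brain, varied least of the 10 genes over the 8 libraries, with a root mean square distance of 0.45 from its mean on the log2(TPM + 1) scale. It was at 12870, 7402, 6627 and 8839 TPM in PKCd replicates 1 to 4, and at 11960, 11980, 19070 and 10490 TPM in SST replicates 1 to 4. The groups overlapped, with PKCd replicate 1 above 3 of the SST libraries. The means were 8936 ± 2781 and 13370 ± 3863 TPM, so SST libraries had 1.5 times the PKCd level, with a log2 fold change of -0.58 ± 0.46 (SE). Of the summed TPM of the 10 genes, Apoe made 7.07% to 13.6% in PKCd libraries and 15.9% to 41.2% in SST libraries, while Cst3 made 80.6% to 88.4% and 37.2% to 67.8%.

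Apoc1 (chromosome 7, 19689480 to 19692659), a small apolipoprotein that modulates lipid uptake, lies 3584 bases from Apoe but was near the limit of detection. Its counts were 42, 32, 5 and 0 in PKCd replicates 1 to 4 and 171, 64, 0 and 5 in SST replicates 1 to 4. The TPM values were 11.82, 12.13, 37.12 and 0, and 61.04, 27.04, 0 and 13.45, and the groups overlapped. For its 2 transcripts, 3 counts would be 9.26 and 14.1 TPM in PKCd replicate 4, and 8.94 and 13.6 TPM in SST replicate 3. No direction could be drawn at this depth (log2 fold change -0.25 ± 1.87, SE), and leaving out PKCd replicate 1, 2 or 4 turned its sign, while without PKCd replicate 3 it was -2.27.

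Clu (chromosome 14, 65968483 to 65981548), the chaperone-like apolipoprotein J, was at 3407, 578.4, 3477 and 2394 TPM in PKCd replicates 1 to 4 and at 5557, 2150, 4963 and 5475 TPM in SST replicates 1 to 4. SST replicate 2 lay below 3 PKCd libraries, so the groups overlapped. The means were 2464 ± 1351 and 4536 ± 1612 TPM, 1.84 times higher in SST libraries (log2 fold change -0.98 ± 0.61, SE). Without PKCd replicate 2, the lowest, the log2 fold change was -0.58, and without SST replicate 1 it was -0.42.

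Lpl (chromosome 8, 68880555 to 68906932), the lipase that frees fatty acids from triglyceride-rich particles, was scarce. Its counts were 240, 72, 1 and 8 in PKCd replicates 1 to 4 and 299, 360, 13 and 150 in SST replicates 1 to 4. In TPM it was 5.2, 2.53, 0.48 and 2.33, against 6.90, 10.2, 3.69 and 24.35, and SST replicate 3 lay below PKCd replicate 1. The SST mean was 4.28 times the PKCd mean (11.28 ± 9.105 against 2.637 ± 1.943 TPM). The log2 fold change was -2.23 ± 1.46 (SE), or -2.63 to -1.18 with each library left out (-1.18 without SST replicate 4). SST replicate 4 also had the highest sums of choroid plexus markers, 3618 TPM, and of fibroblast and meningeal markers, 853.4 TPM. The part of these tissues in Lpl was not tested.

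Ptgds (chromosome 2, 25466709 to 25470110), a prostaglandin D synthase, which also carries lipophilic ligands, varied widely within both populations. It was at 2951, 131.9, 185.6 and 806.8 TPM in PKCd replicates 1 to 4 and at 6569, 5907, 2080 and 994.2 TPM in SST replicates 1 to 4. PKCd replicate 1 stood above SST replicates 3 and 4, so the groups overlapped, although the SST mean was 3.82 times higher (3887 ± 2763 against 1019 ± 1324 TPM, log2 fold change -1.85 ± 0.79, SE). With each library left out the log2 fold change was -2.77 (without PKCd replicate 1) to -1.38 (without PKCd replicate 2).

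**Figure D1:**
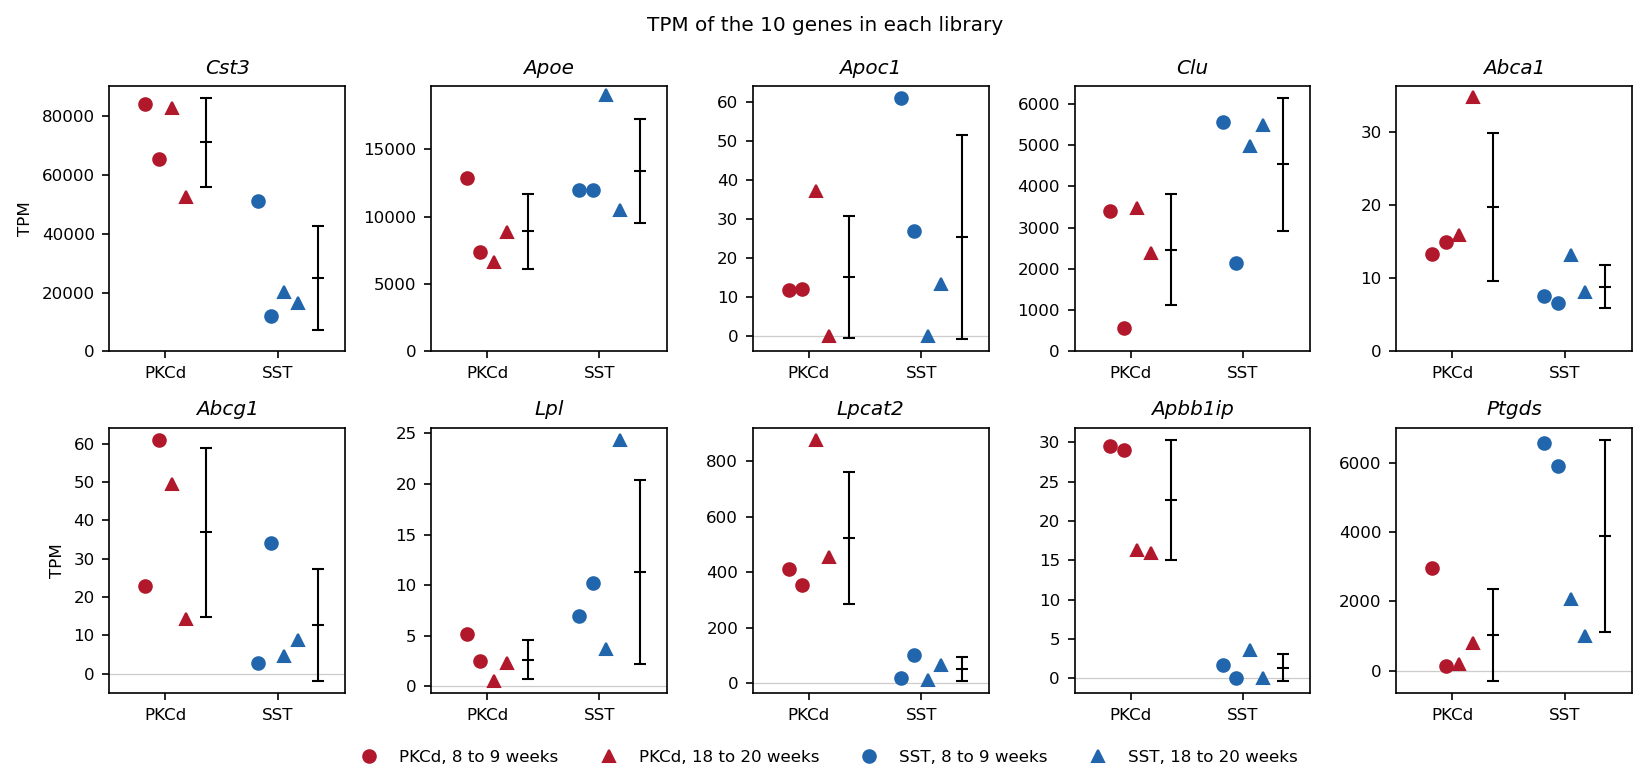
Each panel plots 1 gene in TPM for the 4 PKCd and 4 SST libraries, with circles for mice of 8 to 9 weeks, triangles for mice of 18 to 20 weeks and the mean ± SD of the 4 libraries as a bar. Cst3, Lpcat2, Apbb1ip and Abca1 have every PKCd library above every SST library, and the other 6 genes overlap.

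The plot of the 10 genes by library shows that 4 of them were separated with PKCd above all SST libraries and 0 with SST above, beside 3.88% and 3.05% of all 11328 tested genes. In direction, 5 had a positive and 5 a negative log2 fold change, with a median of 0.44, against -0.08 over all tested genes. All 10 passed the filter on low counts, and 0 of 10 passed edgeR's threshold, beside 0.282% of all genes. DESeq2 called 1 of the 10 (4.01% of all genes), limma on log2(TPM + 1) called 2 (1.3%) and on log2(TPM + 0.1) 1 (0.6%). Since the genes were chosen on this contrast, nothing is read from these counts.

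**Figure D2:**
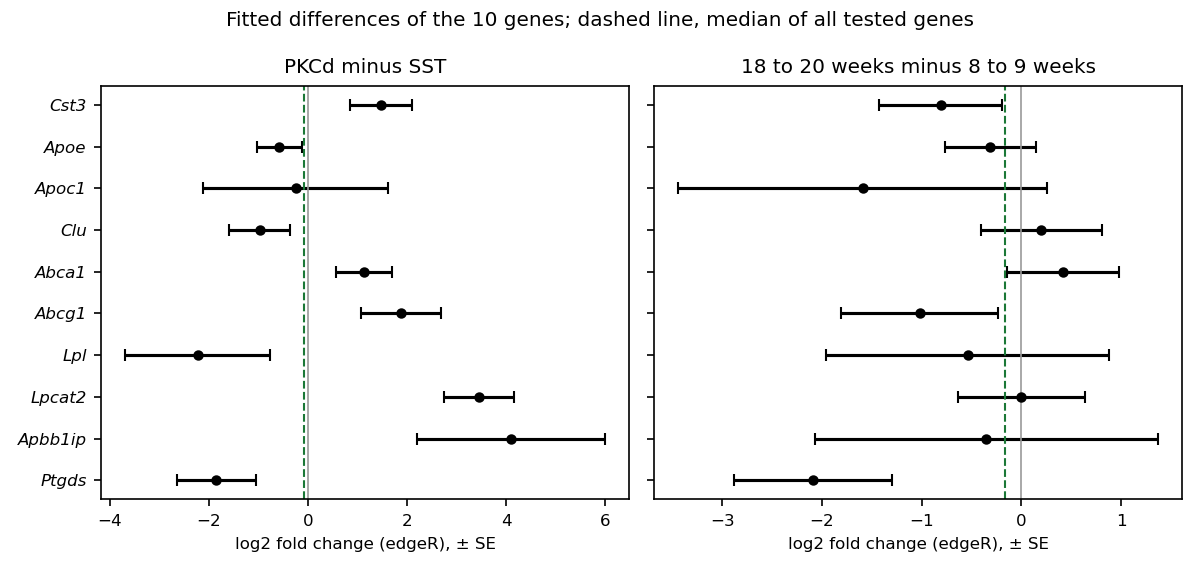
The log2 fold change of each gene from edgeR is plotted with its SE as a bar, PKCd minus SST on the left and older minus younger mice on the right, and the dashed line is the median of all tested genes. On the left Apbb1ip and Lpcat2 lie farthest to the PKCd side at 4.10 and 3.46, and Lpl and Ptgds farthest to the SST side at -2.23 and -1.85, and on the right Ptgds is lowest at -2.09.

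Markers of microglia were also higher in PKCd libraries, as were Cst3, Lpcat2, Apbb1ip and Abca1, which were chosen with that difference known. The summed TPM of the 14 microglial markers was 35030, 28650, 47300 and 29150 in PKCd replicates 1 to 4 and 5303, 1545, 1260 and 467.5 in SST replicates 1 to 4, and none of the 14 was at 0 in any library. With edgeR 5 of these 14 passed an adjusted p of 0.05, beside 0.282% of all genes. In TPM 13 were separated with PKCd above, beside 3.88% of all genes. DESeq2 called 13 and the limma fits 12 and 9, beside 4.01%, 1.3% and 0.6% of all genes. Among the most abundant, C1qb, a chain of complement C1q, was at 9151 ± 2337 and 619.3 ± 750 TPM. C1qc, another C1q chain, was at 6199 ± 1031 and 412.7 ± 359.5 TPM. SST replicate 1, which had the highest Cst3 of the SST libraries, also had the highest microglial sum of them. SST replicate 2, which had the highest Lpcat2 of them, did not, nor did SST replicate 3, which had the highest Apbb1ip and Abca1. Of the PKCd libraries replicate 3 had the highest microglial sum and Lpcat2, but not the highest Cst3, Apbb1ip or Abca1. The part of microglial RNA in the differences of Cst3, Lpcat2, Apbb1ip and Abca1 was not tested.

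The difference between populations was smaller for Cst3 than for the microglial sum. Cst3 stood at 2.4, 2.28, 1.74 and 1.79 times the microglial sum in PKCd replicates 1 to 4, and at 9.61, 7.75, 16 and 35.2 times that sum in SST replicates 1 to 4. All 4 SST ratios were above all PKCd ratios. For Lpcat2 the ratio was 0.0117 to 0.0185 in PKCd libraries and 0.00345, 0.0668, 0.00903 and 0.143 in SST replicates 1 to 4, on both sides of the PKCd range. For Apoe it was 0.14 to 0.368 in PKCd libraries and 2.25 to 22.4 in SST libraries.

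The 13 astrocytic markers summed to 4519, 519.1, 4515 and 3563 TPM in PKCd replicates 1 to 4 and 3506, 5032, 8007 and 5004 TPM in SST replicates 1 to 4. These sums overlapped, 0 of the 13 passed edgeR's threshold (1 at an unadjusted p under 0.05, and 0 with DESeq2 or limma), and 4 had a positive and 9 a negative log2 fold change. Aldh1l1 and Slc7a10 were each at 0 in 1 PKCd library. The most abundant were Aldoc, an aldolase, at 1516 ± 958.3 and 2716 ± 990.9 TPM, the glutamate transporter Slc1a3 at 721.7 ± 428.2 and 970.9 ± 509 TPM, and Mlc1 at 336 ± 201.8 and 314.5 ± 210.1 TPM (PKCd and SST in turn). Clu kept nearest to this sum, at 0.754, 1.11, 0.77 and 0.672 times in PKCd replicates 1 to 4 and 1.58, 0.427, 0.62 and 1.09 times in SST replicates 1 to 4, a range of 3.71-fold over the 8 libraries. PKCd replicate 2 had the lowest Clu and the lowest astrocytic sum, with Aqp4, the water channel of astrocyte endfeet, at 0.0827 TPM. Its Apoe was 7402 TPM, 14.3 times that sum, where the other 7 libraries had 1.47 to 3.41 times. In microglial terms the same library was within the PKCd range, at 0.258 times. It also had the highest sum of border macrophage markers, 517.2 TPM. That sum was 15.88 to 96.54 TPM in the other PKCd libraries and 0.1105 to 3.608 TPM in SST libraries. The part of astrocytes, microglia or border macrophages in Apoe and Clu was not tested.

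**Figure D3:**
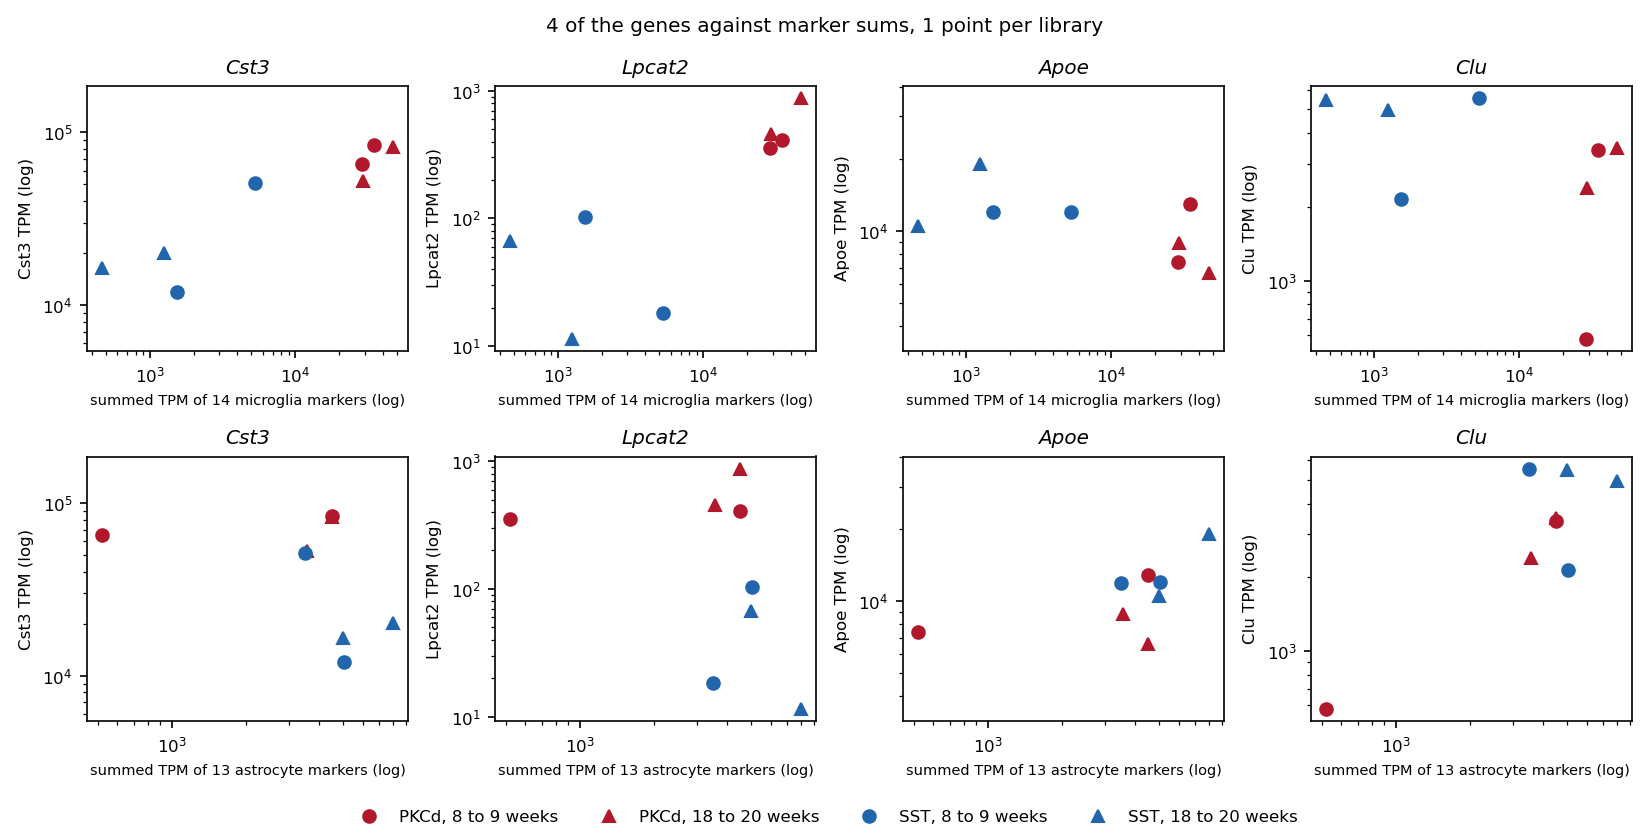
Each point is 1 library (PKCd red, SST blue), with the summed TPM of 14 microglial (top) or 13 astrocytic markers (bottom) on the horizontal axis and the TPM of Cst3, Lpcat2, Apoe or Clu on the vertical axis, all on log scales. PKCd replicate 2 sits apart in the astrocytic panels, with a marker sum of 519.1 TPM, and the SST libraries sit at 467.5 to 5303 TPM of microglial markers.

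The 10 oligodendrocyte markers, from the cells that make Ptgds and myelin, summed to 19460, 12000, 23320 and 30570 TPM in PKCd replicates 1 to 4 and 12790, 61770, 26220 and 12260 TPM in SST replicates 1 to 4. All 10 had a negative log2 fold change and 0 passed with edgeR (0 at an unadjusted p under 0.05, and 0 with DESeq2 or limma). Ptgds stood at 0.00796 to 0.152 times this sum in PKCd libraries and 0.0793 to 0.513 times in SST libraries. Opalin, a myelin protein on that list, is described because its profile was the second nearest to that of Ptgds of all genes compared, so an even ratio of the pair restates that choice. It was at 441.9, 32.23, 44.93 and 306.9 TPM in PKCd replicates 1 to 4 and 1638, 1390, 225.8 and 198.1 TPM in SST replicates 1 to 4. Ptgds stood at 2.63 to 6.68 times Opalin in PKCd libraries and 4.01 to 9.21 times in SST libraries. The choroid plexus markers, from a tissue that also makes Ptgds, summed to 0.1 to 28.5 TPM in 7 libraries. They summed to 3618 TPM in SST replicate 4, where Ptgds was at 994.2 TPM. Fibroblast and meningeal markers summed to 37.3 to 84.5 TPM in the PKCd group. In the SST group they summed to 27.5 to 853.4 TPM, highest in SST replicates 3 and 4. The part of oligodendrocytes, choroid plexus and meninges in Ptgds was not tested.

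Likeness of profile was measured as the root mean square difference of log2(TPM + 1), centred on each gene's mean, over the 8 libraries and 8068 genes with a mean of at least 10 TPM. These libraries hold the population difference, so the nearest profiles restate it, and no cell source is read from them. Nearest to Lpcat2 were Inpp5d (0.48), which encodes the phosphatase SHIP1 of blood cells, Lat2 (0.59) and Ncf4 (0.83), a subunit of the phagocyte oxidase. Nearest to Apbb1ip were Smap2 (0.45), Maf (0.59) and Sall1 (0.61), a transcription factor that is also on the microglial list. Cst3 was nearest to Syngr1 (0.39), Sparc (0.42) and Mpi (0.44). Clu was nearest to Taf9 (0.23), Phyh (0.27) and Gstm1 (0.30), a glutathione transferase. For Ptgds the nearest were E2f5 (0.49), Opalin (0.51) and Entr1 (0.62).

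Apoe was nearest to Lsm5 (0.19), Fam120b (0.22) and Rsph3a (0.26), Abca1 to Smarcc2 (0.26), Gprasp1 (0.32) and Ccar1 (0.36), and Abcg1 to Rbck1 (0.49), Ubtf (0.52) and R3hdm4 (0.53). Apoc1 had no close profile, the nearest being Prim2 at 0.68, and Lpl had too low a mean to be ranked. Among the 10 genes themselves the closest pairs were Apoe with Clu (0.86) and Cst3 with Abca1 (0.88), and the farthest was Lpcat2 with Ptgds (3.69).

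The other genes of these pathways were counted from 8 lists holding 126 genes, of which 102 were tested. With edgeR 1 passed in the PKCd direction and 0 in the SST direction, against 0.282% of all genes. Before adjustment 26 stood below 0.05, beside 756 of all 11328 tested genes. By DESeq2 18 were called in the PKCd direction and 2 in the SST direction, beside 4.01% of all genes. On log2(TPM + 1) limma called 13 and 0, beside 1.3%, and on log2(TPM + 0.1) 9 and 0, beside 0.6%. In non-overlap, 24 had PKCd above all SST and 6 had SST above all PKCd, beside 3.88% and 3.05% of all tested genes. The lists were chosen with earlier results of these data known, so these counts and the p-values below are a description. The part of cell types in these counts was not tested.

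The gene that passed was Fermt3, kindlin-3, the integrin activator of blood cells, from the list of partners of Apbb1ip. It stood at 136.3, 122.9, 207.9 and 140.9 TPM in PKCd replicates 1 to 4 and 1.377, 1.689, 0.8855 and 1.05 TPM in SST replicates 1 to 4. Its log2 fold change was 6.88 ± 0.66 (SE) with an edgeR adjusted p of 0.00407. It was higher in 4 of 4 PKCd libraries. Fermt3 is named because it passed in this comparison, so its p-value is no independent support. With each library left out in turn the adjusted p was 0.00955 to 0.0309, and over all alternatives it was 6.03e-29 to 0.0309. Of the 14 tested genes of that list, 5 had PKCd above all SST and 1 the opposite, beside 3.88% and 3.05% of all genes.

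The prostaglandin and leukotriene genes had the highest median of the 8 lists, 3.55 over 10 tested genes. In every PKCd library 6 of them were above all SST libraries, beside 3.88% of all genes. None passed with edgeR, and 6 had an unadjusted p under 0.05, beside 756 of all 11328 tested genes. DESeq2 called 5 and the limma fits 5 and 3, beside 4.01%, 1.3% and 0.6% of all genes. Ltc4s, leukotriene C4 synthase, was at 641.3 ± 269.2 and 42.93 ± 27.71 TPM (edgeR adjusted p = 0.0748). Ptgs1, cyclooxygenase 1, was at 357.1 ± 136.7 and 6.00 ± 8.477 TPM (edgeR adjusted p = 0.0546). Ptgds, which uses the product of Ptgs1, had the opposite sign to the median of this list. Hpgds, the haematopoietic prostaglandin D synthase, is on the list and was at 145.7 ± 19.09 and 5.662 ± 6.452 TPM (edgeR adjusted p = 0.0783). The 14 microglial markers had a median of 4.3, and the part of microglial RNA in this list was not tested.

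The list of other cystatins and of cysteine cathepsins, the enzymes that cystatins inhibit, had a median of 1.20 over 11 tested genes. Of these, 6 were above all SST libraries, beside 3.88% of all genes. With edgeR 0 passed (5 at an unadjusted p under 0.05, 4 with DESeq2, 3 and 2 with limma). Of all 11328 tested genes 756 stood under 0.05 unadjusted, and DESeq2 called 4.01% and limma 1.3% and 0.6%. Ctss, a cathepsin of antigen-presenting cells, was at 5333 ± 2053 and 460.3 ± 556.6 TPM (edgeR adjusted p = 0.265). Ctsz, a carboxypeptidase of lysosomes, was at 1514 ± 484 and 294.6 ± 69.06 TPM (edgeR adjusted p = 0.0579).

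Among lipoprotein and lipid receptors the median was 0.96, with 3 of 13 tested genes above all SST libraries, beside 3.88% of all genes. With edgeR 0 passed (3 at an unadjusted p under 0.05, 2 with each of DESeq2 and both limma fits). Of all 11328 tested genes 756 stood under 0.05 unadjusted, and DESeq2 called 4.01% and limma 1.3% and 0.6%. Trem2, the microglial lipid receptor, was at 1423 ± 400.1 and 99.8 ± 102.1 TPM (edgeR adjusted p = 0.125), and Tyrobp, its signalling partner, at 2694 ± 994.6 and 319.5 ± 358.3 TPM (edgeR adjusted p = 0.2). The sterol efflux and LXR list had a median of 0.58, with 2 of 16 tested genes above all SST libraries, beside the same 3.88%. With edgeR 0 passed (2 unadjusted, 1 with DESeq2, 0 with limma), and the shares of all genes are those just given. Npc2, which carries cholesterol out of lysosomes, was at 220.7 ± 25.81 and 144.7 ± 25.84 TPM without overlap (edgeR adjusted p = 0.881). Pltp, the phospholipid transfer protein, was at 617.4 ± 472.3 and 328.3 ± 339.1 TPM (edgeR adjusted p = 0.652), highest at 1246 TPM in PKCd replicate 4, the library with the highest endothelial sum, whose part was not tested.

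Of the 19 tested genes of cholesterol synthesis 14 were negative, where 5972 of all 11328 were, with a median of -0.44. In 4 of them SST was above all PKCd libraries, beside 3.05% of all genes, and 0 passed with edgeR (1 unadjusted, 0 with DESeq2 or limma). Msmo1, a sterol oxidase, was at 112.4 ± 81.24 and 459.4 ± 185.7 TPM (edgeR adjusted p = 0.475), and Fdps, which makes farnesyl diphosphate, at 121.6 ± 26.46 and 192.2 ± 58.82 TPM (edgeR adjusted p = 0.904). Of the 13 other apolipoproteins only 3 were expressed enough to be tested, all 3 negative, with 0 passing with edgeR (1 unadjusted, 1 with DESeq2, 0 with limma). Apod, a lipocalin of oligodendrocytes and fibroblasts, was at 278.3 ± 230.1 and 1017 ± 449.6 TPM (edgeR adjusted p = 0.302), and its highest PKCd library, at 620.8 TPM, was just below its lowest SST library, at 622 TPM. Apoo, a mitochondrial protein, was at 115.3 ± 58.6 and 212 ± 63.71 TPM (edgeR adjusted p = 0.881). The lipases and phospholipid enzymes had a median of 0.79 over 16 tested genes, with 2 above all SST libraries, beside 3.88% of all genes. With edgeR 0 passed (2 unadjusted, 2 with DESeq2, 1 with each limma fit). Beside the counts of these 3 lists, 756 of all 11328 tested genes stood under 0.05 unadjusted. DESeq2 called 4.01% of all genes and limma 1.3% and 0.6%. Lpcat3, another phospholipid acyltransferase, was at 84.76 ± 32.69 and 82.06 ± 27.86 TPM (edgeR adjusted p = 0.997). Plin3, a lipid droplet coat protein, was at 60.39 ± 27.69 and 68.38 ± 42.34 TPM (edgeR adjusted p = 0.999).

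**Figure D4:**
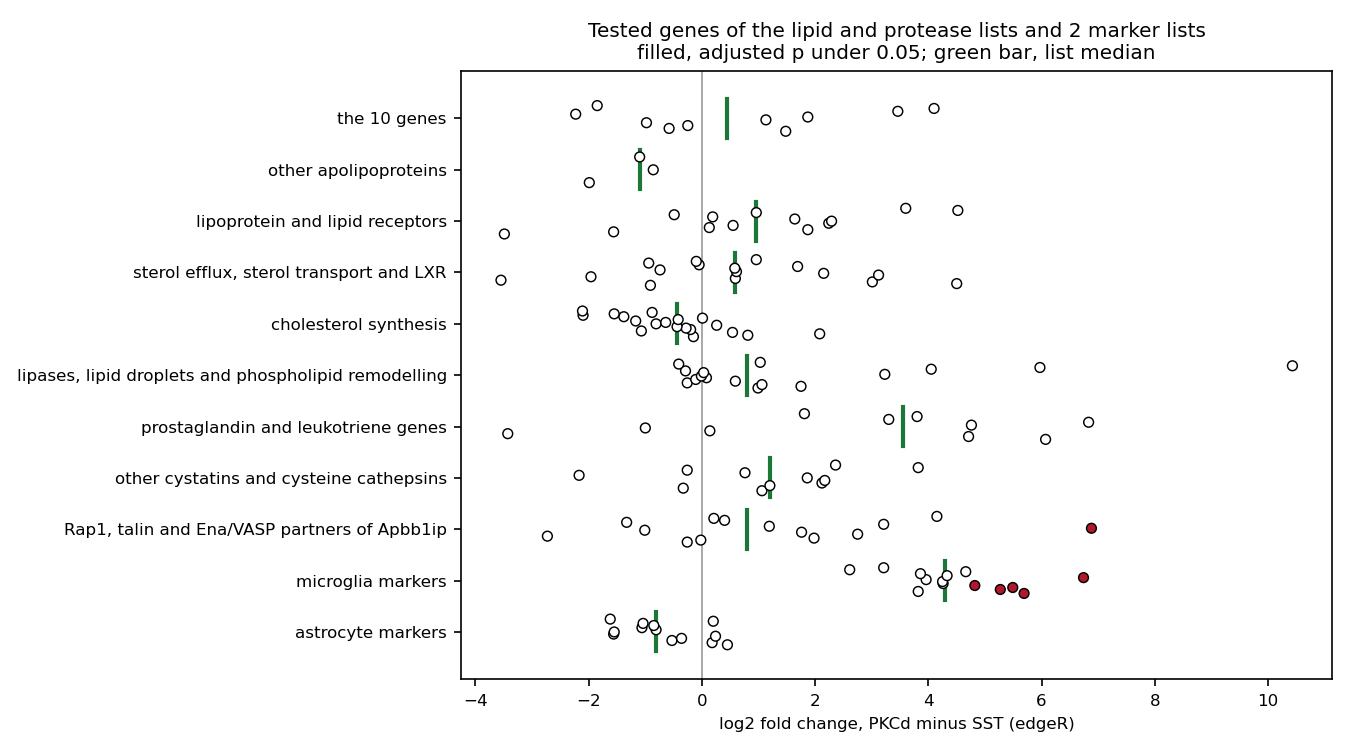
Each row is the 10 genes, a pathway list or a marker list, and each point is 1 tested gene by its edgeR log2 fold change, PKCd minus SST, filled where the adjusted p was under 0.05, with the list's median as a green bar. The prostaglandin and leukotriene list is centred at 3.55 and the cholesterol synthesis list at -0.44.

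The age of the mice was not used to choose the 10 genes, so they were tested in it. With edgeR 0 of the 10 passed between older and younger mice, beside 0.053% of all genes (0.0265% higher and 0.0265% lower in older mice). At an unadjusted p under 0.05 stood 1 of the 10, beside 946 of all 11328 tested genes. DESeq2 (5.0% of all genes) and limma (0.468% and 0.106%) also called 0. Ptgds had the largest difference: it averaged 3890 ± 2958 TPM in the 4 younger and 1017 ± 788.5 TPM in the 4 older libraries (log2 fold change, older minus younger, -2.09 ± 0.79, SE; edgeR adjusted p = 0.513). The younger PKCd replicate 2 was the lowest of all 8 libraries, so the ages overlapped. Without the filter on low counts its adjusted p was 0.00317, and over the alternatives it was 0.00317 to 0.852. Of the 10 oligodendrocyte markers 8 were negative and 2 positive by age, with 0 passing by edgeR and 1 at an unadjusted p under 0.05, and their part in the difference of Ptgds was not tested.

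The other 9 genes had edgeR adjusted p-values of 0.759 to 0.999 by age. Cst3 averaged 53070 ± 30580 TPM in younger and 42860 ± 30940 TPM in older libraries (log2 fold change -0.81 ± 0.62, SE), and without SST replicate 1 the sign turned to 0.07. Apoe was at 11050 ± 2471 and 11260 ± 5446 TPM. Lpcat2 was at 221.6 ± 190.3 and 352.7 ± 401.3 TPM with a fitted log2 fold change of -0.00 ± 0.64 (SE), whose sign changed with the scaling. The median of the 10 was -0.44, against -0.16 over all tested genes.

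Whether the population difference itself changed with age was tested by the interaction, with 2 libraries a cell. With edgeR 0 of the 10 passed, beside 0.0% of all genes, and 0 had an unadjusted p under 0.05. Among all genes 467 had an unadjusted p under 0.05, and DESeq2 called 77 (0.693%) and limma 0, with 0 of the 10 genes among them. Lpcat2 averaged 382.4 TPM in younger and 666.1 TPM in older PKCd libraries, against 60.73 and 39.2 TPM in SST libraries (interaction 1.22 ± 1.30, SE, log2 scale). Cst3 averaged 74670 and 67400 TPM in younger and older PKCd libraries, and 31460 and 18320 TPM in younger and older SST libraries (interaction 0.94 ± 1.26, SE). Neither difference was larger than its error.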

How the data were processed

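Each deposited file holds, per transcript, an estimated count and a TPM value; both were made by the authors with kallisto, per the file headers, and version 0.43.0 and the build mm10 come from the submitters' processing notes, which also list BWA 0.7.12 without its role. The deposited TPM values are scaled per length to the same total in each library and keep no depth. Of 30404 targets, 30080 were named from RefSeq, 147 from GENCODE and 177 kept only an accession, giving 20692 genes; the 10 genes had 11 targets. Gene sums of the estimated counts were rounded to whole numbers, and 11328 genes were tested with the quasi-likelihood test of edgeR 4.0.16 (R 4.3.3; TMM, default filter by population, age class and population as terms; Benjamini-Hochberg, threshold 0.05), whose F statistic gave the SE. Strandedness of the counting is not given, so overlapping genes are uncertain. In simulated counts of 10679 genes for PKCd against SST, 1.54% of 65 genes changed 4-fold, 40.6% of 64 changed 16-fold and 64.4% of 59 changed 64-fold were recovered, and 3 unchanged genes were called. DESeq2 1.42.0, limma 3.58.1, RLE scaling, no filter, no age term, a replicate block, thinning to the smallest library (added after seeing the data) and each library left out were alternatives. The 10 genes and all lists were chosen with earlier results of these data known. 1 gene that the rule for named genes takes is not reported here. Named genes were the 10, up to 3 genes past the threshold in each list or otherwise its 2 most abundant, the 3 most abundant microglial and astrocytic markers, and the 3 nearest profiles of each gene. Opalin, Aqp4, Prkcd, Sst, Slc32a1 and Hpgds were named after their values were seen. Each library is a different mouse, so p-values measure the spread between mice, sorting and amplification together.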

Additional observations from a re-analysis of the deposited data

Results flagged for a closer look

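Of 64 groups of 4 libraries examined, 3 had a library whose gap to its nearest neighbour exceeded Dixon's 95% critical value, and chance gives about 1 in 20. Abca1 stood at 34.87 TPM in PKCd replicate 4, against 13.3 to 15.99 in the other PKCd libraries. Apod stood at 620.8 TPM in PKCd replicate 1, against 125.6 to 195.3 in the other PKCd libraries. SST replicate 1 stood apart for Ptgs1, at 18.7 TPM against 1.41 to 2.379 in the other SST libraries.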

How the results depend on the processing

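With edgeR 32 genes passed between PKCd and SST libraries. The count was 269 (218 higher, 51 lower) with no filter, 454 (362 and 92) with DESeq2, 147 (137 and 10) with limma on log2(TPM + 1), 68 (66 and 2) on log2(TPM + 0.1), 55 (54 and 1) after thinning, which was chosen after seeing the data, and 10 to 52 with each library left out (10 without PKCd replicate 3 or SST replicate 3, 13 without SST replicate 4, 15, 17 and 21 without PKCd replicates 1, 4 and 2, 52 without SST replicate 1). By age 6 genes passed, against 2 with RLE, 249 (116 higher, 133 lower) with no filter, 555 (250 and 305) with DESeq2, 53 (20 and 33) and 12 (7 and 5) with the limma fits, 12 (6 and 6) after thinning and 0 to 2 with a library left out. For the interaction, 0 passed, against 25 (6 and 19) with no filter, 77 (12 and 65) with DESeq2 and 0 with a library left out. TMM put the median of all genes at -0.16 by age.

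Of 156 alternative values of the 10 genes between populations 146 kept direction and side of the threshold, 7 passed it (Cst3, Lpcat2 and Ptgds) and 3 turned: Apoc1 was 0.32, 0.24 and 0.08 without PKCd replicates 1, 2 and 4, and -2.27 to 0.32 over all libraries left out. Of 336 values of the other named genes 51 passed and 17 turned. Lpcat3 was -0.01 in both limma fits, -0.06 without PKCd replicate 2, -0.23 without PKCd replicate 3, -0.18 without SST replicate 2 and -0.08 without SST replicate 3 (range -0.23 to 0.35). Plin3 was 0.03 and 0.04 in the limma fits, and 0.16, 0.19, 0.33 and 0.26 with those same libraries left out (range -0.46 to 0.33). Slc1a3 was 0.01 without PKCd replicate 2 (range -1.17 to 0.01), and Mlc1 was -0.08 and -0.09 in the limma fits, -0.05 with the replicate block and -0.66 without PKCd replicate 1 (range -0.66 to 0.59). By age 10 of 136 values turned: Cst3 0.07 (range -1.07 to 0.07) and Apbb1ip 0.49 (-1.98 to 0.49) without SST replicate 1, Clu -0.09 (-0.09 to 0.77) without PKCd replicate 2, and Lpcat2 0.07 with RLE and DESeq2, 0.05 and 0.04 with limma, 0.10 without PKCd replicate 4, and 0.69 and 0.43 without SST replicates 2 and 3 (range -0.43 to 0.69). The cause was not tested.

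Replicate numbers gave no clear pairing: deviations of same-numbered libraries from the population means correlated at 0.0764, 0.124, 0.0615 and 0.174. The highest correlation of each PKCd library with an SST library of another number was 0.170, 0.0709, 0.154 and 0.0827. The same number was thus nearest for replicates 2 and 4 but not for replicates 1 and 3. With the number as a block 24 genes passed between populations and 0 for the interaction. By age no paired analysis was possible because each number lies within 1 age class. Apoc1 and Lpl had no value where the filter dropped them. Low counts in the older libraries limit Apoc1, Lpl and Apbb1ip.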
